A study of Mus musculus with 9 samples.

Results

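The Kruppel-like factors examined here were 10 mouse transcription factor genes, Klf2, Klf3, Klf4, Klf6, Klf7, Klf9, Klf10, Klf11, Klf13 and Klf16, taken by symbol from a table of 20467 named genes. The list was chosen by gene family name with the read counts and fold changes of these libraries in view. The Roquin values of its members are therefore a description. Their p-values set the group difference of each gene against the spread between libraries, and are no test of the list. Which of the values led to the choice is not recorded, and no threshold is stated. Sequencing covered 9 libraries made with RAW264.7, a macrophage-like mouse cell line, all from cells exposed to lipopolysaccharide (LPS) at 100 ng/ml for 2 h, so no unstimulated cells entered the comparisons. In 3 libraries the RNA came down with protein A/G beads that carried rabbit polyclonal anti-Roquin antibodies (Roquin IP). The 3 control IP libraries came from the same kind of beads with no antibody, and the 3 input libraries came from lysate RNA isolated before any immunoprecipitation (IP). Because the control IP lacked an antibody, RNA held through Roquin cannot be told apart from RNA held through anything else the antibodies bring down.

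Kruppel-like factors bind GC-rich and CACCC boxes in promoters through 3 C-terminal zinc fingers, and differ mainly in the N-terminal part that recruits coactivators or corepressors. In macrophages they are known as regulators of inflammatory gene expression, and several are encoded by short-lived, stimulus-responsive mRNAs. Roquin proteins bind short hairpins in mRNAs, among them the constitutive decay element (CDE), a stem with a loop of 3 bases, and recruit a deadenylase that starts the decay of the mRNA.

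Sequences are shown first because Roquin binds RNA hairpins and the 2 Klf mRNAs that stood out in the Roquin IP carry no CDE in the authors' deposited table. All 10 genes are listed there as having none. Each line gives 25 bases of a 3' untranslated region (3' UTR) from GENCODE M21 transcripts (build GRCm38), written 5' to 3' as DNA. Capitals mark the 3-base loop (pyrimidine, purine, pyrimidine) with the unbroken stem around it, counting A-T, G-C and G-T pairs, except in the second Klf10 line, where they mark an AU-rich heptamer. The Tnf hairpin, which is the known CDE of the tumour necrosis factor mRNA, is the reference. The first Klf9 line is its match to the CDE core and the second its longest stem. The lines for Klf13, Klf3 and Klf6 show hairpins of genes that did not rise, and were chosen after the values were seen. The Klf6 line is not its longest stem, since the Klf6 UTR also held stems of up to 10 pairs.
Tnf, chr17:35199580-35199604, minus strand, 7 pairs: gacaTGTTTTCTGTGAAAACGgagc
Klf9, chr19:23166116-23166140, plus strand, 3 pairs: tccttatgTTCTATGAAattcccac
Klf9, chr19:23167529-23167553, plus strand, 7 pairs: attaCTTTTTATATTAAAAAGacca
Klf10, chr15:38294425-38294449, minus strand, 5 pairs: tataccTTGTTTACAATAAagactt
Klf10, chr15:38294922-38294946, minus strand, heptamer: gtgtcttttTATTTATaggagtttt
Klf13, chr7:63891159-63891183, minus strand, 7 pairs: tctgGAGTTTCTGTGAGGTTTagga
Klf3, chr5:64830321-64830345, plus strand, 6 pairs: tcattTGTGTCTATGACACAtagta
Klf6, chr13:5867457-5867481, plus strand, 5 pairs: ggcataGCACCCATGGTGCatggtg

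The CDE core was searched on the transcript strand as TTCNNNGAA, with the middle 3 bases a pyrimidine, a purine and a pyrimidine. Of the 10 longest 3' UTRs, only that of Klf9 held it, at 1 place 1215 bases after the stop codon. The stem of that Klf9 match ended at 3 pairs, so a strict form that needs 2 further pairs was in no member. Among all 9448 tested genes with an annotated 3' UTR, 6.60% held the core and 1.46% the strict form. Among the 359 of these genes that were higher in the Roquin IP than in the control IP, 17.5% held the core and 9.47% the strict form. The shares of both gene sets are not matched for UTR length, and no test was made of them. Among UTRs of a length like that of Klf9 (3222 bases), 12.4% held the core. The Klf10 UTR, 1492 bases long, held no core, against 4.97% with a core among UTRs of like length, which says only that these letters are not in this window.

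Looser letters were common among the members, whether or not they rose. A 3-base loop on at least 5 pairs, a form tried after the core search, was in 9 of the 10 UTRs, in 68.2% of all UTRs and in 90.0% of those of genes higher than in the control IP. Klf2 was the member without one, Klf10 had 1, Klf9 had 4, and Klf6 and Klf7 had 8 each. The longest Klf9 stem, of 7 pairs, lay 2628 bases after the stop codon. The Klf10 hairpin lay 1467 bases after the stop codon, close to the end of the UTR. The heptamer TATTTAT, the core of AU-rich elements, was in 6 members, namely Klf2, Klf6, Klf7, Klf10, Klf11 and Klf16, in 31.0% of all UTRs and in 49.0% of those of genes higher than in the control IP. These shares are not matched for UTR length and no test was made of them. The single Klf10 copy lay 970 bases after the stop codon, and Klf9 had none. A match of letters is a description and not a binding site. The map of 3' UTRs draws these positions to scale.

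**Figure D1:**
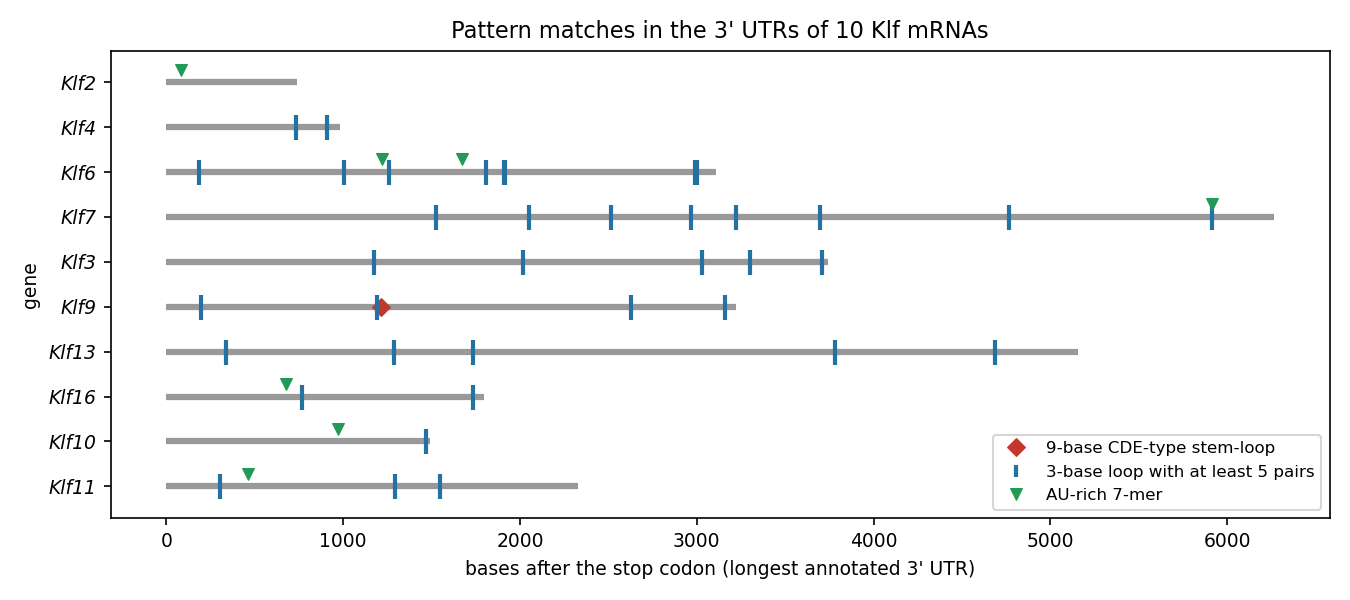
The longest annotated 3' UTR of each member is drawn as a line from the stop codon (x axis, bases after the stop codon), with each searched pattern as a mark. The core pattern appears once, in Klf9, while 3-base loops on at least 5 pairs appear in 9 of the 10 genes, including Klf genes that did not rise in the Roquin IP.

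The libraries held 1799390 to 12975767 reads, and 3 reads, the most that a count of 0 allows, corresponded to 0.258 to 1.49 CPM (counts per 1e+06 reads) across them. Levels are in CPM of library sizes scaled by TMM factors, which correct for a few RNAs taking a large share. Such RNAs were present: Lars2 held 15.0% to 41.5% of reads across the libraries, and Tnf held 17.6% to 27.2% in the Roquin IP against 0.143% to 0.516% elsewhere. All 10 macrophage markers were detected in the input, with summed levels of 1350 to 2124 CPM there, 1346 to 2278 CPM in the Roquin IP and 1097 to 1729 CPM in the control IP. Of the 5 T cell markers, Cd3e, Cd3g, Cd4 and Cd8a had no read in any library, and Lck was detected in all 3 groups, with 29 reads in the input. The T cell list, which is Lck alone in these libraries, summed to 0.774 to 3.36 CPM in the Roquin IP, 1.03 to 10.96 in the control IP and 1.98 to 7.12 in the input. The B cell, fibroblast, epithelial and endothelial lists each summed to at most 1.26 CPM. In such bulk samples, fewer cells with a transcript and less of it per cell cannot be told apart.

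In the lysate, Klf6 was the most abundant Kruppel-like mRNA. Per kb of transcript, the scale on which levels of different genes are ranked here, Klf6 stood at a mean of 18.4 CPM per kb in the input (11.2 to 23.1 over 3 libraries). Klf16 followed at 6.87, and its range of 5.62 to 8.90 CPM per kb lay wholly below that of Klf6. Next came Klf9 at 4.17, Klf13 at 3.85, Klf7 at 2.73, Klf10 at 2.64 and Klf4 at 2.40 CPM per kb, and the ranges of these neighbours overlapped. Klf2, at 1.19, Klf11, at 0.397, and Klf3, at 0.298 CPM per kb, were lowest. Of the 7 other Klf genes in the table, only Klf8 was measurable, with 157 reads over the 9 libraries. Klf8 stood at 3.62 ± 0.314 CPM (SD, n = 3) in the Roquin IP, 3.48 ± 2.61 in the control IP and 3.09 ± 1.42 in the input. Klf1 and Klf17 had 2 reads each, Klf5 had 1, and Klf12, Klf14 and Klf15 had 0.

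In the Roquin IP the order changed at the top. Klf10, which ranked 6 of the 10 in the input, was first at 75.1 CPM per kb (26.0 to 109), and Klf9 was the next at 28.1 (14.6 to 43.8), with ranges that overlapped. Klf6 was then at 14.2 (8.45 to 20.8 CPM per kb), and its range overlapped that of Klf9 but not that of Klf10. In the control IP Klf6 and Klf16 led, at 15.5 and 12.9 CPM per kb, with Klf9 at 4.05 and Klf10 at 1.94.

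**Figure D2:**
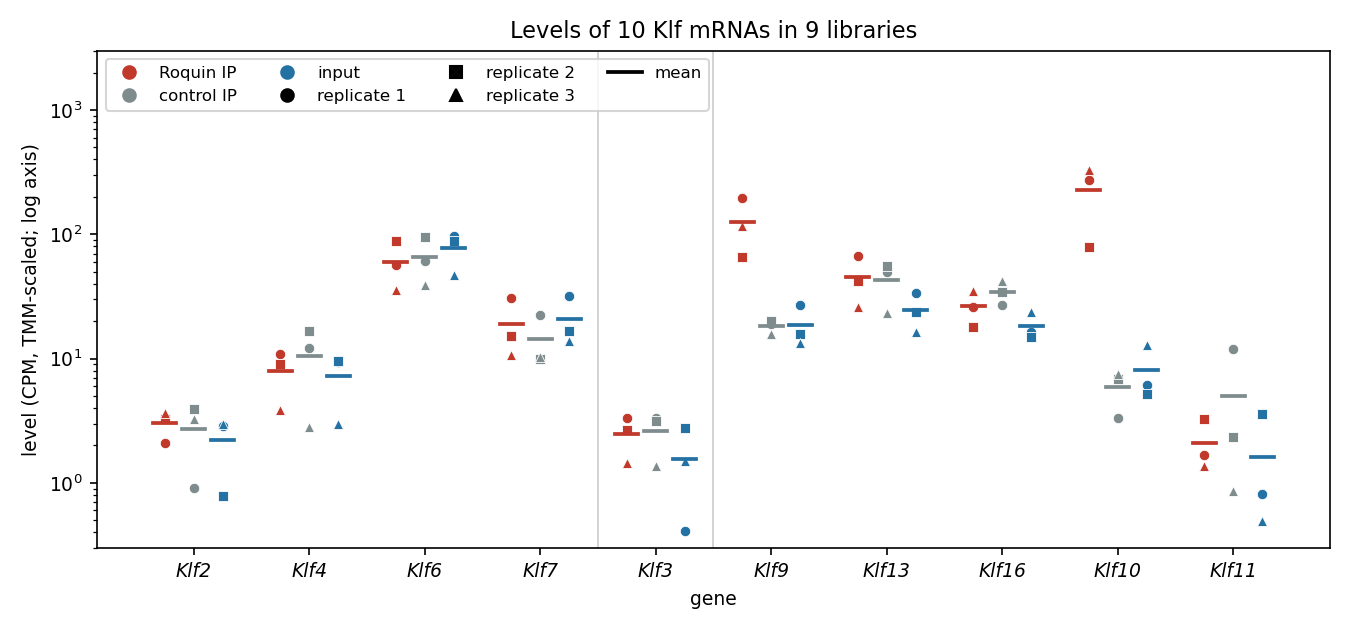
Each gene is shown in the 9 libraries, with the level in CPM on a log axis. A point stands for each library and a bar for the group mean (n = 3). All 3 Roquin IP points of Klf10 and Klf9 lie above all 6 other points, while the groups of the remaining 8 genes overlap between the Roquin IP and the control IP.

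The first comparison, Roquin IP against control IP, concerned the Klf mRNAs recovered with the antibodies in excess of bead background. Of the 10 genes, all of which passed the filter on low counts, 2 were higher at an adjusted p under 0.05, Klf10 and Klf9, against 3.76% of the 9567 genes tested. By edgeR's quasi-likelihood test 0 members were lower, as by DESeq2 and at an unadjusted p under 0.05. Over all genes 0% were lower by edgeR at the adjusted threshold, 204 at the unadjusted one, and 6 by DESeq2. In 2 members every Roquin IP library lay above every control IP library, a pattern seen in 10.7% of all genes, and in 0 members did every one lie below, against 8% of all genes. The median log2 change of the 10 genes was -0.01, beside -0.12 over all genes tested. Against the input the same pair was higher, 2 members beside 5.45% of all genes. In that comparison 0 members were lower by edgeR, by DESeq2 or at the unadjusted threshold. For Klf2, Klf3 and Klf11 DESeq2 gave no adjusted p over the input. Of all genes, 2.79% were lower than in the input by edgeR at the adjusted threshold, 1025 at the unadjusted one, and 542 by DESeq2. Every Roquin IP library lay above every input library for these 2 members, as for 16.5% of all genes, and 0 members lay wholly below, beside 14.3%. The medians were 0.52 for the members and -0.01 for all genes. Both comparisons use the same Roquin IP libraries, so their values are set side by side and not counted as separate support.

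**Figure D3:**
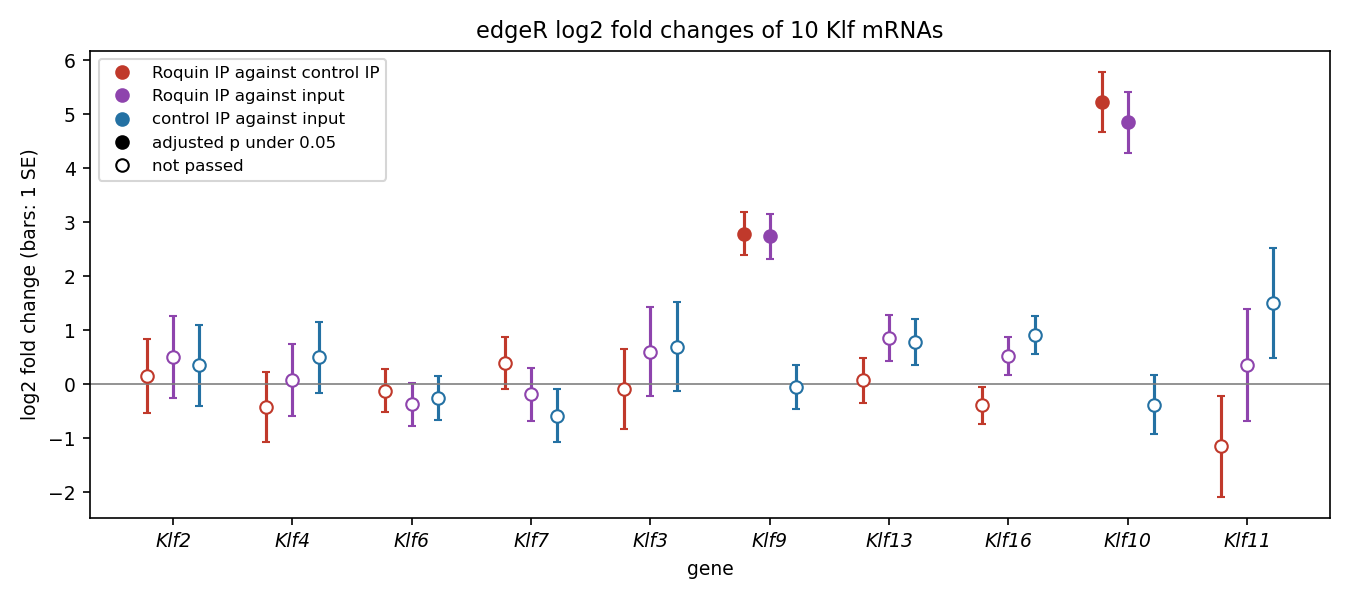
Log2 fold changes of the 10 genes from the edgeR fit are plotted with their standard errors for each of the 3 comparisons among the groups. Klf10 at 5.22 and Klf9 at 2.79 stand apart in Roquin IP against control IP, and the other 8 genes lie between -1.15 and 0.39.

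The Sin3a-binding Kruppel-like factors, which carry a short N-terminal repression helix, include Klf9, Klf10, Klf11, Klf13 and Klf16. Klf10 (chr15:38291463-38300706, minus strand, 4 exons), known as TGF-beta-inducible early gene and a repressor that acts in SMAD signalling, gave the larger difference. Its levels were 275, 79.3 and 332 CPM in the Roquin IP. In the control IP they were 3.35, 6.86 and 7.48 CPM, and in the input 6.11, 5.14 and 12.9 CPM. The lowest Roquin IP library thus stood above the highest of the other 6, and the Roquin IP values differed among themselves more than those of the control IP did. In reads, Klf10 had 656, 627 and 3429 in the Roquin IP, 11, 35 and 87 in the control IP, and 15, 13 and 26 in the input. Klf10 was 37.4-fold higher in the Roquin IP than in the control IP, a log2 change of 5.22 (SE 0.56, edgeR adjusted p = 2.66e-05). That change ranked 21 of 9567 by size. Over the input it was 28.8-fold higher (log2 4.85, SE 0.56, edgeR adjusted p = 6.08e-05). Between libraries of the same number, Klf10 was 82.1-, 11.6- and 44.4-fold higher than in the control IP, and 45.0-, 15.4- and 25.7-fold higher than in the input. In control IP against input Klf10 was at log2 -0.38 and did not pass.

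Klf9 (chr19:23141226-23168134, plus strand, 2 exons), a factor induced by glucocorticoid and thyroid hormone, was the other. Its levels were 196, 65.5 and 116 CPM in the Roquin IP, 18.9, 20.0 and 15.6 CPM in the control IP, and 26.9, 15.8 and 13.4 CPM in the input. Here again every Roquin IP value lay above every control IP and input value, while the control IP and input ranges overlapped. Klf9 was 6.92-fold higher in the Roquin IP than in the control IP, a log2 change of 2.79 (SE 0.41, edgeR adjusted p = 0.000497, rank 145 of 9567), and 6.67-fold higher than in the input (log2 2.74, SE 0.41, edgeR adjusted p = 0.000691). Between libraries of the same number the excess was 10.4-, 3.28- and 7.42-fold over the control IP and 7.30-, 4.14- and 8.66-fold over the input. As with Klf10, the second Roquin IP library gave the smallest excess. For both genes the calls held when each library was left out in turn. Whether the Klf9 letters shown above bear on these values was not tested.

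The other 3 genes of that group did not rise over the beads. Klf13 (chr7:63886351-63938915, minus strand, 2 exons), known as an activator of the chemokine gene Ccl5 in T cells, had 67.5, 42.5 and 26.0 CPM in the Roquin IP, 49.6, 55.8 and 23.1 in the control IP, and 33.8, 23.7 and 16.4 in the input. Its Roquin IP and control IP values overlapped throughout (log2 0.07, SE 0.42, edgeR adjusted p = 0.966). Its UTR carries the hairpin of 7 pairs printed above, 336 bases after the stop codon. Over the input Klf13 was at log2 0.86 (SE 0.43, edgeR adjusted p = 0.253), and it passed with the replicate number as a block (log2 0.84, edgeR adjusted p = 0.0378). Klf16 (chr10:80567124-80577321, minus strand, 2 exons), a repressor of GC-box promoters, had 26.0, 18.0 and 35.2 CPM in the Roquin IP, 26.8, 34.3 and 42.3 in the control IP, and 16.3, 15.0 and 23.8 in the input. Klf16 was thus lowest on average in the input and not above the beads in the Roquin IP (log2 -0.39, edgeR adjusted p = 0.769). Klf11 (chr12:24651274-24662789, plus strand, 4 exons), the second TGF-beta-inducible early gene, had 117 reads in all. Its levels were 1.68, 3.29 and 1.35 CPM in the Roquin IP and 0.814, 3.56 and 0.496 in the input, beside 11.9, 2.35 and 0.860 in the control IP. The first control IP library decides its value: the log2 change in Roquin IP against control IP was -1.15 (SE 0.93, edgeR adjusted p = 0.752) with it and 0.49 without it. The T cell marker Lck was also highest in that library, at 10.96 CPM, and its part in the Klf11 value was not tested.

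The activator-type factors Klf2, Klf4, Klf6 and Klf7 did not differ between Roquin IP and control IP beyond the spread of their libraries. Klf6 (chr13:5861482-5870394, plus strand, 4 exons), which promotes inflammatory gene expression in macrophages, had 56.6, 88.0 and 35.7 CPM in the Roquin IP. It had 61.5, 95.04 and 39.5 CPM in the control IP and 97.7, 87.8 and 47.1 CPM in the input. In every group the third library was lowest, and the groups overlapped (log2 -0.12 over the control IP, edgeR adjusted p = 0.943, and log2 -0.37 over the input). Klf6 rested on 1200, 1146 and 557 reads in the Roquin IP, control IP and input. Klf7 (chr1:64029447-64122282, minus strand, 4 exons), a factor best known from neurons, had 30.6, 15.3 and 10.7 CPM in the Roquin IP, 22.5, 9.99 and 10.2 in the control IP, and 32.2, 16.6 and 13.9 in the input. Its log2 change was 0.39 over the control IP (edgeR adjusted p = 0.833) and -0.19 over the input, where all groups overlapped. The annotation places 2 genes on the other strand over 3200 bases of Klf7, and the sources used here do not say whether counting used strand.

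Klf4 (chr4:55527143-55532466, minus strand, 5 exons), which drives monocyte differentiation and alternative activation of macrophages, had 10.9, 9.10 and 3.87 CPM in the Roquin IP, 12.2, 16.7 and 2.84 in the control IP, and 9.37, 9.49 and 2.98 in the input. As for Klf6 and Klf13, the third library was lowest in each group, whereas for Klf10 and Klf16 it was highest in each. Its log2 change was -0.42 over the control IP (edgeR adjusted p = 0.882) and 0.08 over the input. Klf2 (chr8:72319033-72321656, plus strand, 3 exons), a gene of quiescent endothelium and resting leukocytes that restrains macrophage activation, had 145 reads in all and levels of 2.10, 3.29 and 3.68 CPM in the Roquin IP. In the control IP Klf2 had 0.914, 3.92 and 3.27 CPM, and in the input 2.85, 0.791 and 2.98 CPM. These values overlapped (log2 0.16 over the control IP, SE 0.69, edgeR adjusted p = 0.955, and 0.51 over the input), and a difference was not detectable at this depth.

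Klf3 (chr5:64803388-64832901, plus strand, 6 exons), a repressor that recruits CtBP, had the fewest reads of the 10 genes, 98 in all. It had 3.36, 2.65 and 1.45 CPM in the Roquin IP, 3.35, 3.14 and 1.38 in the control IP, and 0.407, 2.77 and 1.49 in the input. Roquin IP and control IP were nearly equal library by library (log2 -0.09, edgeR adjusted p = 0.979), and the change over the input was 0.61. Its UTR carries 5 of the 3-base-loop hairpins, among them the stem of 6 pairs printed above. The annotation places a gene on the other strand over 404 bases of Klf3.

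These directions depend on the TMM scaling, which centres most genes near 0. With library size alone the median of all genes over the control IP moved from -0.12 to -0.96, and Klf6 (log2 -0.99, edgeR adjusted p = 0.0493) and Klf16 (log2 -1.20, edgeR adjusted p = 0.0303) passed as lower. Klf10 at 4.43 and Klf9 at 1.97 still passed as higher on that scale, on which Klf2, Klf7 and Klf13 turned negative.

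The change at the top of the family can also be read as shares of the reads that fell on the 10 genes. Such shares are not corrected for transcript length. Klf10 took 41.3% ± 17.2 of them in the Roquin IP (SD, n = 3, range 24.3% to 58.6%), against 3.15% ± 1.79 in the control IP and 5.02% ± 3.90 in the input. Klf9 took 23.3% ± 5.21, 9.23% ± 1.33 and 10.2% ± 1.58. Klf6 took 13.9% ± 11.3 in the Roquin IP, 31.5% ± 6.04 in the control IP and 42.2% ± 6.94 in the input. Summed without Klf9 and Klf10, the other 8 genes stood at 118 to 199 CPM in the Roquin IP, 123.4 to 221.2 in the control IP and 109 to 193 in the input. These ranges overlapped in all 3 groups, so the higher family total in the Roquin IP lay in Klf9 and Klf10.

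**Figure D4:**
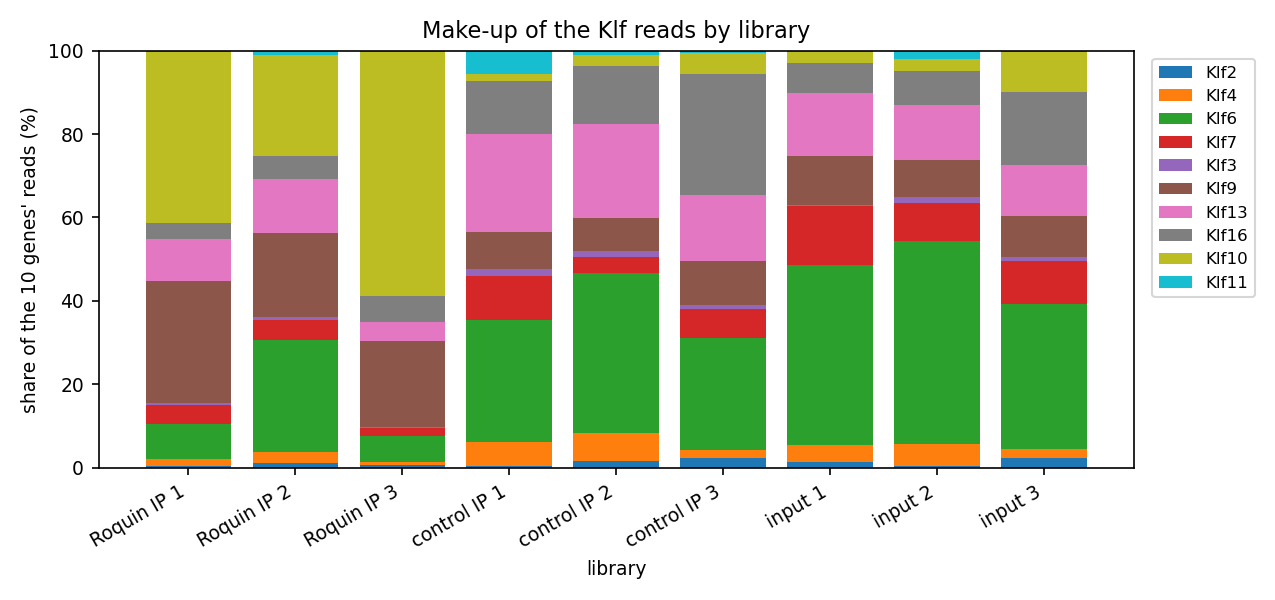
Stacked bars give, for each of the 9 libraries, the percentage of the reads on the 10 genes that fell on each gene. Klf10 spans 24.3% to 58.6% of the Roquin IP bars and at most 9.52% of the others, whereas Klf6 is the widest band of all 3 input bars.

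Control IP against input asked what the beads alone retained. None of the 10 genes passed in either direction by edgeR, beside 0.815% of all genes higher and 0.303% lower. By DESeq2 0 members passed, beside 405 of all genes higher and 401 lower. That method gave no adjusted p for Klf2, Klf3 and Klf11 there. At an unadjusted p under 0.05 there was 1 member, Klf16, which was higher, beside 1036 of all genes higher and 912 lower. Klf16 was higher in all 3 control IP libraries than in any input library, as were 12.2% of all genes (10.8% were lower in all 3, with 0 members among them). Its log2 change of 0.92 (SE 0.35) had an edgeR adjusted p of 0.165, and 0.0426 with the replicate number as a block. The other changes ran from -0.58 for Klf7 to 1.502 (SE 1.02) for Klf11, the latter resting on the first control IP library. The median was 0.42 for the members, beside 0.02 for all genes.

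**Figure D5:**
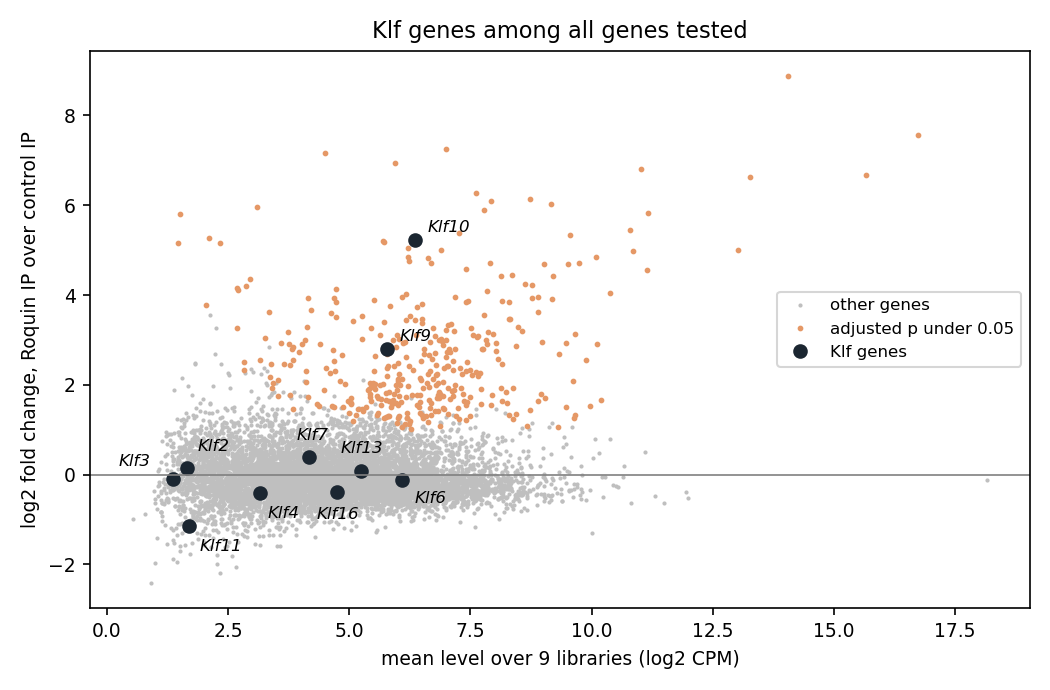
Every tested gene is a point, orange where its adjusted p was under 0.05 and grey otherwise, with its mean log2 CPM over the 9 libraries on the x axis and its log2 change in Roquin IP against control IP on the y axis, and the 10 members are large dark points. Klf10 lies at 5.22 and Klf9 at 2.79 among the orange points, while the other 8 lie among the grey ones.

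The authors' deposited table gives a linear ratio of Roquin IP to control IP of 39.37 for Klf10 with a p of 0.054754, and of 7.02 for Klf9 with a p of 0.370292. For the other 8 genes the authors' deposited table gives ratios from 0.42 to 1.34, each with a p of 1. The sources used here do not say whether that p was adjusted. The sizes stand close to the folds of 37.4 and 6.92 from edgeR, while Klf10 and Klf9 pass a threshold of 0.05 in edgeR and in DESeq2 and not in the authors' deposited table.

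Among the 360 genes higher in the Roquin IP than in the control IP, 329 (91.4%) carry the class without a CDE in the authors' deposited table. Ordered by fold change, Klf10 was number 16 and Klf9 number 121 of those 329. By class, 62.2% of the 37 tested genes with a conserved 3' UTR CDE were higher, against 3.49% of the 9437 genes without any CDE. In the other classes, 10.5% of the 38 genes with a nonconserved 3' UTR CDE and 7.27% of the 55 with an ORF CDE were higher. The genes whose log2 CPM was most like that of Klf10 over the 9 libraries were Nadk (Pearson r 0.983), Gmeb2 (0.981) and Arl5b (0.981). For Klf9 they included Spred1 (0.993) and Gpbp1l1 (0.988), and none of these 5 has a CDE in the authors' deposited table. Between Klf9 and Klf10 the r was 0.933. These coefficients describe 9 libraries that share the group differences, and no test was made of them.

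Genes around the Kruppel-like factors were taken from lists of their relatives, partners and regulators. The Sp family shares the zinc fingers and GC-box sites of the Klf genes. Of its 9 genes 5 were tested, and 0 passed over the control IP or the input by edgeR with TMM factors (0 and 1, respectively, at an unadjusted p under 0.05, the latter lower), with medians of -0.08 and -0.60. In DESeq2 0 Sp genes passed in either, and with the replicate block 1 was lower than in the input. Among 16 corepressor and coactivator genes, 0 passed over the control IP by edgeR (1 higher and 1 lower unadjusted, 1 higher by DESeq2 and 1 with the replicate block), with a median of -0.24. Over the input 2 were higher, beside 5.45% of all genes. They were Ctbp1, the corepressor bound by Klf3 (log2 1.13, edgeR adjusted p = 0.0247), and Med1, a Mediator subunit (log2 1.26, edgeR adjusted p = 0.0308). Ctbp1 was also higher in control IP than in input (log2 1.76, edgeR adjusted p = 0.0166), beside 0.815% of all genes. Without single libraries these calls over the input were lost, at an edgeR adjusted p of up to 0.120 for Ctbp1 and 0.124 for Med1.

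In the list of upstream kinase, MEF2 and ubiquitin ligase genes, which act on the expression or turnover of Klf proteins, 15 of 16 were tested and 4 were higher in the Roquin IP than in the control IP, beside 3.76% of all genes. At an unadjusted p under 0.05 there were 6, beside 759 of all 9567 genes, and by DESeq2 5, beside 475 of 9566. Map3k2, a kinase upstream of the ERK5 and MEF2 path to Klf2 and Klf4, was at log2 3.09 (edgeR adjusted p = 4.69e-05). Fbxw7, the substrate receptor of a ubiquitin ligase that targets Klf2 and other Klf proteins, was at 3.00 (edgeR adjusted p = 6.43e-05). Vhl, a ubiquitin ligase subunit that acts on Klf4, was at 2.95 (edgeR adjusted p = 9.24e-05), and Smurf2, another ligase, at 1.31 (edgeR adjusted p = 0.0290). Over the input 4 were higher, beside 5.45% of all genes. Unadjusted there were 7, beside 1157 of all 9567 genes, and by DESeq2 4, beside 712 of 8638. The 4 by edgeR were Vhl at log2 3.64, Fbxw7 at 3.29, Map3k2 at 2.49 and Wwp1, a ligase of Klf2, at 1.44. The calls of Map3k2, Fbxw7 and Vhl held when single libraries were left out, and those of Smurf2 (edgeR adjusted p up to 0.177) and Wwp1 (up to 0.154) did not. The medians of the list were 0.02 over the control IP and 0.73 over the input. In the TGF-beta and SMAD list, named for the pathway that induces Klf10 and Klf11, 13 of 21 genes were tested and 0 passed over the control IP by edgeR or DESeq2, with 0 unadjusted and a median of 0.09. Over the input Tgif2, a SMAD corepressor, was higher (log2 1.79, edgeR adjusted p = 0.0101), beside 5.45% of all genes. It was also higher in control IP against input (log2 1.89, edgeR adjusted p = 0.0342), beside 0.815% of all genes. With the replicate block 3 genes of that list were higher than in the input, beside 956 of all 9567 genes. The Tgif2 call over the input was lost with library size alone (edgeR adjusted p = 0.0697), and that in control IP against input without any one library but control IP 1 (up to 0.110). By edgeR with TMM factors and no block, 0 genes of the 4 lists were lower in any of the 3 comparisons at the adjusted threshold. At most 2 per list and comparison were lower unadjusted, and DESeq2 called 1, an Sp gene in control IP against input. With the replicate block 1 Sp gene and 1 kinase, MEF2 or ligase gene were lower than in the input, and 2 and 1 were lower in control IP against input. With library size alone, on which most genes shift down, 2 Sp, 9 corepressor or coactivator, 5 kinase, MEF2 or ligase and 3 TGF-beta or SMAD genes were lower than in the control IP, and 2, 7, 2 and 0 were lower than in the input.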

How the data were processed

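The members and the gene lists were chosen with earlier results of these data known. The table deposited by the authors held, per the file headers, raw read counts per gene in each library, their ratio of Roquin IP to control IP, their p-value and a text class for a predicted CDE. The header of the deposited ratio names log2, but its values are linear. The tools named in the submitters' processing notes are BWA, CASAVA 1.8.2 and DESeq 1.8.3. The sources used here do not give the build, the annotation or the use of strand. A further 7480 entries without a symbol held 0% of the counts and were left out.

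Counts of all 9 libraries were fitted once with edgeR 4.0.16 (quasi-likelihood F test, TMM factors, group as the only term) in R 4.3.3. A minimum count of 10 in filterByExpr left 9567 genes, over which p-values were adjusted by the Benjamini-Hochberg method, with a threshold of 0.05. The common biological coefficient of variation was 0.35. DESeq2 1.42.0, other scalings and filters, a replicate block and omission of each library were tried beside it. A count of 0 allows up to 3 counts, a floor that covers counting error only, since amplified reads are not independent molecules.

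The series' design text calls the replicates biological, and the p-values set the group differences against the spread between these samples. No libraries were duplicates: the chi-square per degree of freedom within groups was 13.9 to 117.4. Deviations from the group means correlated at 0.152 to 0.580 in the 9 pairs of libraries with the same number in the labels and at -0.433 to -0.0185 in the 18 other pairs, so the numbers pair the samples. The main fit, with group as its only term, does not use that pairing. The fit with the replicate block does, and its calls are given beside the main ones. The scripts were tested on simulated data.

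The text names every member, the other Klf genes, at most 4 genes past the threshold per list and comparison, and the 3 genes most alike each called member by Pearson r of log2 CPM (prior count 2), of which 1 is not reported here. Hairpins were searched with Python 3.11.15 in the longest GENCODE M21 3' UTR, which 9448 of the 9567 genes (98.8%) had. Of stretches of 36 bases in member transcripts, 0% to 1.28% also occur in other genes.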

Additional observations from a re-analysis of the deposited data

How the results depend on the processing

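Klf10 and Klf9 stayed higher than both backgrounds, past the threshold, under all 16 alternatives tried for each comparison. With single libraries left out, Klf10 ranged from 4.85 to 5.64 over the control IP and from 4.47 to 5.35 over the input (log2), and Klf9 from 2.33 to 3.10 and from 2.28 to 3.10. The smallest Klf9 value outside these was 1.97 over the control IP with library size alone (edgeR adjusted p = 0.0118). The replicate block gave 5.07 for Klf10 and 2.66 for Klf9 over the control IP. It raised the members higher than in the input from 2 to 3, adding Klf13, and those higher in control IP than in input from 0 to 1, adding Klf16, and changed no other call of a member. Over all genes it counted 528 higher and 11 lower over the control IP, 956 and 769 over the input, and 636 and 553 in control IP against input, beside 360 and 0, 521 and 267, and 78 and 29 without it. DESeq2 counted 475 and 6, 712 and 542, and 405 and 401.

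Library size alone gave 257 higher and 3708 lower over the control IP, 259 and 2668 over the input, and 57 and 10 in control IP against input, and moved the median of all genes over the input from -0.01 to -0.76. On that scale 2 members were lower than in the control IP and 1, Klf6, was lower than in the input (log2 -1.19, edgeR adjusted p = 0.0305). Signs turned to -0.69 for Klf2, -0.44 for Klf7 and -0.76 for Klf13 over the control IP. Over the input they turned to -0.21 for Klf2, -0.18 for Klf3, -0.73 for Klf4, -0.46 for Klf11 and -0.17 for Klf16. Klf9 in control IP against input turned from -0.05 to 0.028, and to 0.039 with the block. The cause was not tested.

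Leaving out single libraries turned the sign of weak changes. Over the control IP the ranges were -0.19 to 0.47 for Klf2, -0.43 to 0.21 for Klf3, -0.89 to 0.11 for Klf4, -0.51 to 0.26 for Klf6, -0.11 to 0.85 for Klf7, -1.70 to 0.49 for Klf11 and -0.32 to 0.36 for Klf13. Over the input they were -0.26 to 0.44 for Klf4, -0.68 to 0.27 for Klf7 and -0.16 to 1.65 for Klf11. In control IP against input they were -0.065 to 0.71 for Klf2, -0.024 to 0.97 for Klf4, -0.63 to 0.014 for Klf6, -0.28 to 0.31 for Klf9, -0.62 to 0.072 for Klf10 and -0.13 to 2.80 for Klf11. Of 468 values of members under the alternatives, 36 changed sign, 5 newly passed and 427 kept direction and call. The 427 include the DESeq2 values of Klf2, Klf3 and Klf11 in both comparisons with the input. Those had no adjusted p and were counted as not passing. Some alternatives tested fewer members, since Klf genes of low counts left the filter.

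Among the listed genes, 5 lost a call with a single library left out. By edgeR adjusted p, Smurf2 over the control IP reached 0.177 (lost without Roquin IP 1 or 3 or any control IP library). Over the input, Ctbp1 reached 0.120 (Roquin IP 1 or 3, input 1 or 2), Med1 0.124 (Roquin IP 1 or 3, any input) and Wwp1 0.154 (Roquin IP 1 or 3, input 2 or 3). In control IP against input, Ctbp1 reached 0.0949 (control IP 2, input 1 or 2) and Tgif2 0.110 (any library but control IP 1). With library size alone Smurf2, Ctbp1, Med1, Wwp1 and Tgif2 lost their Roquin calls too. The hairpin search found 1 member with the core, 0 with the strict form, and, in forms chosen after seeing the data, 9 with a 3-base loop on at least 5 pairs and 6 with TATTTAT. Low counts limit Klf2, Klf3 and Klf11, which had 145, 98 and 117 reads in all libraries together.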
